A study of Mus musculus with 6 samples.

Results

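The events described here belong to genes of the synaptic vesicle cycle and of the synaptic scaffolds, and were measured in mouse brain on Affymetrix MJAY arrays, which carry probe sets for the alternative forms of an RNA event. Members were chosen by gene symbol alone, through a fixed pattern of family names (*Syt*, *Stx*, *Stxbp*, *Snap*, *Vamp*, *Syn*, *Sv2*, *Rims*, *Unc13*, *Dnm*, *Dlg*, *Dlgap*, *Shank*, *Homer*, *Magi* and their relatives). Events between 7053631 and 11866235 on chromosome 19, the congenic interval around *Nxf1*, were left out, which removed 5 events of *Stx3*, *Stx5a* and *Syt7*. The members were 202 events in 83 genes, of 12986 events with intensities in 7766 genes by symbol.

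The RNA was total RNA of whole brain from 6 mice of a B6.CAST congenic line, 3 homozygous for the *Nxf1* CAST allele and 3 homozygous for the *Nxf1* B6 allele. *Nxf1* encodes the major export receptor for messenger RNA, and the comparison asks whether its alleles alter the choice between alternative RNA forms. The animals formed 3 same-sex pairs of littermates with opposite alleles. Pair 1 was female and 46 days old, pair 2 was male with ages of 22 days (B6) and 23 days (CAST), and pair 3 was female and 23 days old. Both alleles sat on the shared congenic background, and CAST sequence next to *Nxf1* on chromosome 19 travels with the CAST allele.

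The deposited table gives, for each path of an event, 1 intensity for a set A and 1 for a set B, each already pooled over the 3 arrays of the set. It holds no value per animal, so no spread between animals, no error and no test could be computed for any value below, and the number of arrays limits the precision of each. Genotypes are not written beside the sets. The heading of the table defines the score as mutant over wild type and the study's methods place CAST over B6, so set B was likely *Nxf1* CAST and set A likely *Nxf1* B6. The value of an event is the log2 of exclusion over inclusion intensity in set B divided by that in set A, and a value above 0 is relatively more exclusion signal in set B. An absolute value over 0.5 (about 1.41-fold), the size threshold of the study's methods, is called past the fold. The study also required a cut on the false discovery rate. That cut was not applied here, so past the fold is a label of size only. The exclusion path is the one that leaves the segment out. For alternative starts and ends the table does not say in words which form it counts as exclusion, so those values are described by path only. In mutually exclusive exons either path carries an exon, so their values and signs are also by path only.

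Neurotransmitter leaves a neuron when SNARE proteins on the vesicle (synaptobrevins of the *Vamp* family) zip together with SNAREs on the cell membrane (syntaxins and *Snap25*), after priming by Munc13 proteins and triggered by the calcium sensor synaptotagmin. Active zone proteins hold vesicles at the release site, dynamin and its partners take the membrane back, and on the receiving side PDZ scaffold proteins anchor receptors. Many of these genes are known for alternative exons used mainly in neurons, some of them very short. Neuron markers were bright in both sets. For *Snap25*, *Syt1* and *Eno2*, the 3 of 9 listed markers with an event, the summed intensities lay between 3514 and 20035 in set A and between 3489 and 19107 in set B. *Snap25* and *Syt1* are also members.

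Of the 202 member events, 14 (6.93%) in 13 genes were past the fold, against 7.32% of all events. More exclusion in set B was seen for 7 of the 197 members with an exclusion path (3.55%, background 4.51%). Less exclusion was seen for another 7 (3.55%, background 2.72%). Here and below, these directions follow the path counted as exclusion. They include alternative starts (1 with more, 4 with less) and ends (0 with more, 1 with less), whose form is not stated in words. By gene, 13 of 83 (15.7%) had an event past the fold, against 11.7% of all genes, and members had 2.43 events per gene, up to 7, against 1.67 over all genes. The shares of members and of all events were thus close. No member exceeded 1 on the log2 scale, and 0.223% of all events did. The median absolute value was 0.15 over members and 0.18 over all events, and the 90th percentiles were 0.41 and 0.45. Below 0.1 lay 59 member events, between 0.1 and 0.3 another 94, and between 0.3 and 0.5 another 35. Values above 0 were found in 110 and below 0 in 87 of the members with an exclusion path, or 55.8% above 0 against 55.4% of all such events.

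**Figure D1:**
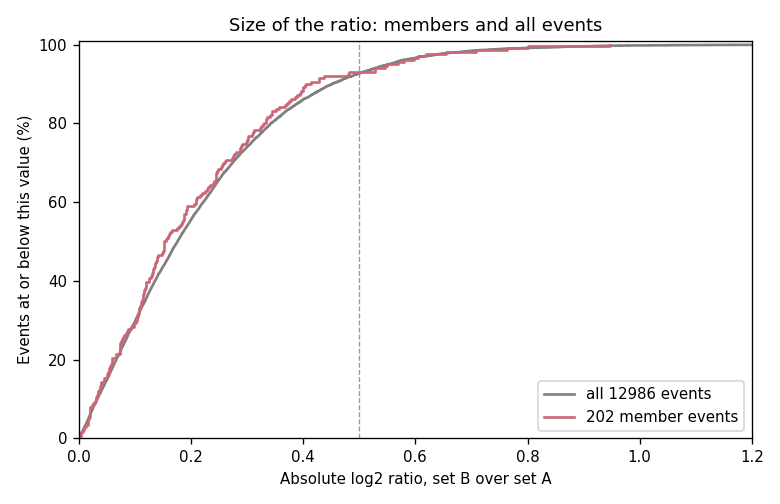
Cumulative share of events (y axis, percent) at or below each absolute log2 ratio of set B over set A (x axis), for the 202 member events and all 12986 events. The 2 lines run close to each other, with medians of 0.15 and 0.18, and meet near the dashed line at 0.5.

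The largest value of the family was an alternative start of *Sv2b* (chromosome 7, 82351808 to 82454148, minus strand), which encodes a membrane glycoprotein of synaptic vesicles. The exclusion path read 371 in set A and 169 in set B, while the inclusion path read 1349 and 1185. The exclusion path was thus lower by more than the inclusion path, and the value of -0.95 ranked 39 among all events by size. *Sv2b* had no other event in the table. Alternative starts supplied 5 of the 14 events past the fold, from 41 member starts (12.2%, against 6.32% of all alternative starts). The other starts were in *Syt17*, *Vamp1*, *Stx16* and *Shank3*.

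The bases just before the annotated starts of these genes are shown because it is the choice between starts that these events read. They are the 100 bases upstream of each start that RefSeq lists on GRCm38.p6, printed 5′ to 3′ on the strand of the gene. Capitals mark matches, on either strand, to TATAAA (the TATA box), GGGCGG (the GC box), CCAAT (the CCAAT box) or CACGTG (an E-box), and adjoining matches run together. The array table follows another build, so which listed start belongs to which path was not determined, and a listed start may be neither. *Syt17* had no entry among the promoters used here.
Sv2b start 1 (chr7:75309263-75309362, minus strand): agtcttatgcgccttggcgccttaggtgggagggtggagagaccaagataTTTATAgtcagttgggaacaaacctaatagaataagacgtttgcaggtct
Sv2b start 2 (chr7:75308387-75308486, minus strand): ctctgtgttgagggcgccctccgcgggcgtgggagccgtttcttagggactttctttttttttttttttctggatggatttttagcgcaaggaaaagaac
Sv2b start 3 (chr7:75302610-75302709, minus strand): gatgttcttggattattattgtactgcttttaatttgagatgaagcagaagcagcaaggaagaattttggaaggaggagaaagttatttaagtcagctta
Sv2b start 4 (chr7:75220020-75220119, minus strand): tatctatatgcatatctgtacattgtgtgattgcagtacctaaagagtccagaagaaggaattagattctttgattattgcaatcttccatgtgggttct
Vamp1 (chr6:125215481-125215580, plus strand): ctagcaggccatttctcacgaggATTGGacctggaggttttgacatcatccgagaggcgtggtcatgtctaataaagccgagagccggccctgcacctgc
Stx16 start 1 (chr2:174076202-174076301, plus strand): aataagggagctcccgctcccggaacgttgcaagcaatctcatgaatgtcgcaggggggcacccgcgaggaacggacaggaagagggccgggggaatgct
Stx16 start 2 (chr2:174076951-174077050, plus strand): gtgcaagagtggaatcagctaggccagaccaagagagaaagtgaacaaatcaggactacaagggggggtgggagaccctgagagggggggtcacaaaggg
Shank3 (chr15:89499508-89499607, plus strand): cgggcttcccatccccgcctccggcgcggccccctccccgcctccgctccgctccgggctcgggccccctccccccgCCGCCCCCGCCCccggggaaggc

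*Sv2b* had 4 listed starts, the first with a match to the TATA box and the others with no match, and G and C made up 34% to 48% of their bases. The *Shank3* window was 87% G and C and held 2 GC boxes, the *Vamp1* window held 1 CCAAT box, and neither *Stx16* window held a match. Promoters were listed for 69 of the 83 member genes, 102 in all, and 24 genes had more than 1. GC boxes stood in the last 100 bases of 42.2% of the member promoters and 24.7% of all 32851 promoters, TATA boxes in 4.9% and 5.56%, CCAAT boxes in 12.7% and 18.9%, and E-boxes in 6.86% and 3.17%. The median share of G and C was 65.5% in member windows and 55% in all. These letters are a description of the windows and say nothing of factors bound there.

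**Figure D2:**
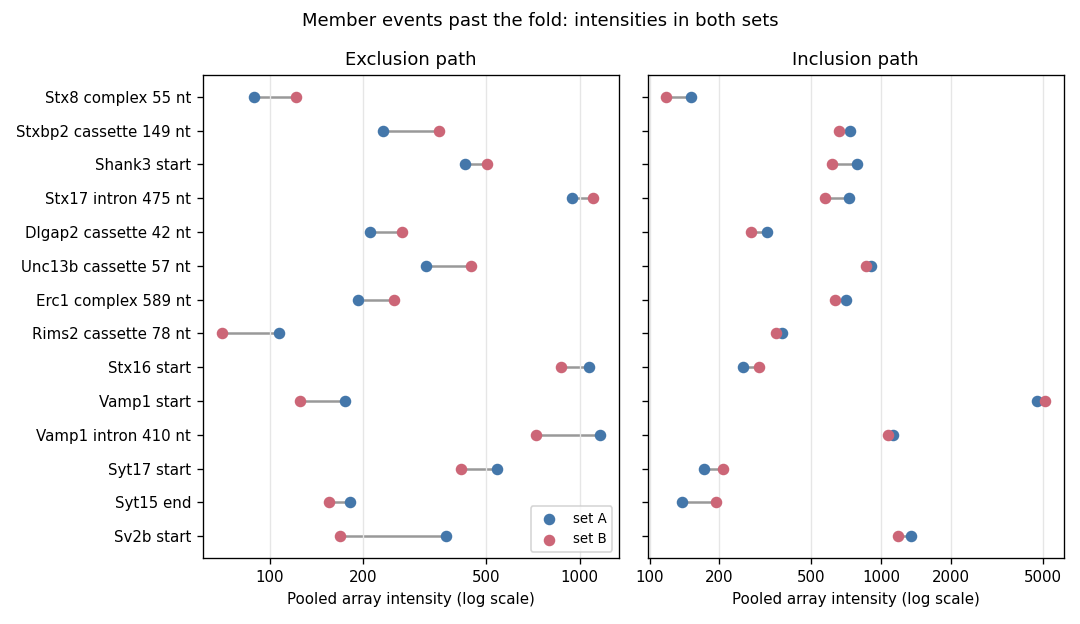
Pooled array intensity (x axes, log scale) of the exclusion path (left) and the inclusion path (right) of the 14 member events past the fold, ordered by log2 ratio, in set A (blue) and set B (red). For *Sv2b* and the *Vamp1* intron the sets lie farther apart on the exclusion path than on the inclusion path, whereas for *Syt15* they lie farther apart on the inclusion path.

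SNAREs and their regulators held 36 events in 19 genes, of which 6 (16.7%, against 7.32% of all events) were past the fold, 3 with more and 3 with less exclusion in set B. Of the 35 with an exclusion path, 26 lay above 0, and their median was 0.13, against a median of 0.03 over all events. The highest value was in *Stx8*, an endosomal syntaxin, in a complex event with a segment of 55 nt (chromosome 11, 67786773 to 67824816). The exclusion path read 89 in set A and 122 in set B, the inclusion path 150 and 118, and the value was 0.80. These intensities were near the low end of the array, whose 10th percentile was 102. A cassette exon of 39 nt that overlaps it had a value of 0.33 (exclusion 122 and 136, inclusion 186 and 165), and alternative ends of *Stx8* in the same stretch had -0.08 and 0.04.

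*Stxbp2* encodes a syntaxin-binding protein that acts mainly outside neurons. Its cassette exon of 149 nt (chromosome 8, 3634103 to 3635466) had exclusion intensities of 232 in set A and 352 in set B, with inclusion intensities of 736 and 658, for a value of 0.76. Here the exclusion path was higher and the inclusion path lower in set B. Another cassette exon of the same gene, of 50 nt, had 470 and 440 against 1453 and 1357, and a value of 0.00. *Stxbp5l*, a tomosyn relative that holds back release, had 4 events, all above 0, between 0.10 and 0.21.

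In *Stx17*, a syntaxin of autophagosomes, the path without a 475 nt intron read 943 in set A and 1106 in set B, while the path that retains it read 726 and 570 (chromosome 4, 48195789 to 48196307), for a value of 0.58. The retained form was thus relatively dimmer in set B. An alternative 5' splice site of the same gene, with 166 and 221 for exclusion and 312 and 395 for inclusion, had a value of 0.07.

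*Vamp1*, the synaptobrevin of spinal cord and brain stem, had 2 of its 3 events past the fold, both with values below 0. The intron of 410 nt (chromosome 6, 125169655 to 125170067) had exclusion intensities of 1165 in set A and 725 in set B, with inclusion intensities of 1126 and 1076, for a value of -0.62. The alternative start (125165598 to 125190352) had 175 and 125 on the exclusion path and 4708 and 5114 on the inclusion path, for a value of -0.60. The intron lies inside the span of the start event, so they are not independent readings of the gene. Its alternative end, the remaining event of the gene, had a value of 0.13 with 1737 and 1797 on the exclusion path and 249 and 235 on the inclusion path. Retained introns of members numbered 8, of which those of *Stx17* and *Vamp1* were past the fold, and 9.87% of all retained introns were.

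The alternative start of *Stx16*, a syntaxin of the trans-Golgi network (chromosome 2, 173901821 to 173902624), had 1072 and 873 on the exclusion path, 252 and 296 on the inclusion path and a value of -0.53. Cassette exons of 144 nt and 166 nt in *Stx16* had values of 0.33 and 0.21, which cannot be set against the sign of the start. *Snap25*, the neuronal membrane SNARE, is known for a pair of mutually exclusive exons whose use shifts as the brain matures. That event (118 nt each) had 7948 in set A and 7945 in set B on the exclusion path and 12087 and 11162 on the inclusion path, and a value of 0.11. These intensities were near the top of the array, which reached 13185. *Snap23*, its relative outside neurons, had a value of -0.38 for a 33 nt exon (412 and 278 against 73 and 64) and -0.23 for an alternative 5' splice site. *Nsf*, the ATPase that takes spent SNARE complexes apart, ranged from -0.02 to 0.31 over its events.

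**Figure D3:**
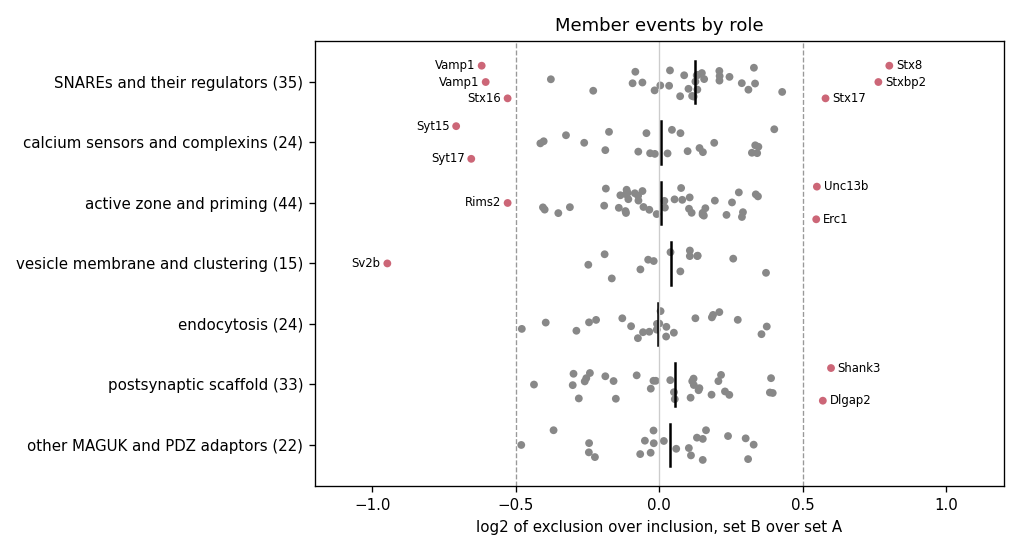
log2 ratio of exclusion over inclusion, set B over set A (x axis), for the 197 member events with an exclusion path, by role (y axis, with the number of events). Red points are past the fold (dashed lines at -0.5 and 0.5) and carry their gene, and black bars are medians. SNAREs and their regulators have the highest median, 0.13, and the roles of endocytosis and of the other adaptors have no event past the fold.

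Among calcium sensors, 24 events in 14 genes had a median absolute value of 0.19, and the values above 0 and below 0 numbered 12 each. Both events past the fold (8.33%, against 7.32% of all events) lay below 0, where the background was 2.72%. They came from synaptotagmins that are not the fast calcium triggers of release. The alternative end of *Syt15* (chromosome 14, 35040367 to 35043607) had exclusion intensities of 181 in set A and 155 in set B, with inclusion intensities of 138 and 193, for a value of -0.71. It was the single one of 32 member ends past the fold (3.13%, against 2.78% of all alternative ends). The alternative start of *Syt17* (chromosome 7, 125586650 to 125591733) had 543 and 415 on the exclusion path and 172 and 207 on the inclusion path, for a value of -0.66. *Syt1*, the fast calcium sensor, had a value of 0.14 for an 80 nt cassette exon, with 9130 and 8631 against 1963 and 1684. All 5 events of *Syt6* lay above 0, from 0.03 to 0.35, and the highest in this role was an alternative 5' splice site of *Doc2a*, 0.40, with 141 and 134 against 950 and 684.

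Active zone and priming genes held 44 events in 13 genes, the most of any role, with 22 values on each side of 0 and a median absolute value of 0.14. Past the fold were 3 of them (6.82%, against 7.32% of all events). *Unc13b* encodes Munc13-2, which readies vesicles for fusion. Its cassette exon of 57 nt (chromosome 4, 43272461 to 43274574) had exclusion intensities of 319 in set A and 447 in set B, with inclusion intensities of 901 and 863, for a value of 0.55. A 36 nt exon elsewhere in *Unc13b* had the opposite sign, -0.40, with 176 and 161 against 402 and 485. The complex event of *Erc1*, an active zone scaffold, with a segment of 589 nt (chromosome 6, 119774637 to 119797894), had 193 and 252 for exclusion and 707 and 632 for inclusion, and a value of 0.55. The other *Erc1* events ran from -0.31 to 0.28, and the cassette exon of 139 nt that overlaps it had -0.09.

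*Rims2*, which links vesicles to calcium channels, had a cassette exon of 78 nt (chromosome 15, 39417308 to 39447814) with exclusion intensities of 107 in set A and 70 in set B, inclusion intensities of 372 and 351, and a value of -0.53. An exclusion intensity of 70 is under the 10th percentile of the array. The other *Rims2* events lay between -0.12 and 0.02. In *Rims1* the values ran from -0.35, at an alternative start, to 0.34, at a 532 nt intron. The giant scaffold *Pclo* had 5 events between -0.12 and 0.29, and *Unc13a*, which primes most brain synapses, had 4 between -0.14 and 0.34. The secretory priming factors *Cadps* and *Cadps2* lay between -0.19 and 0.25. The liprins *Ppfia1* and *Ppfia2*, which organise the active zone, lay between -0.19 and -0.03.

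Vesicle membrane and clustering genes, 15 events in 9 genes, had *Sv2b* alone past the fold (6.67%, against 7.32% of all events). At the other end was an alternative 3' splice site of *Syn1*, a synapsin that ties vesicles together, with 823 and 1142 against 4264 and 4573 and a value of 0.37. *Syn2* had 3 events between -0.02 and 0.07. In the endocytosis role 0 of 26 events were past the fold (background 7.32%). Set by symbol, this role includes 2 events of *Dnm1l*, a dynamin-like gene, and 5 of *Synj2bp*, which is of none of the named families. The lowest was the alternative start of *Amph*, amphiphysin, at -0.48 (847 in set A and 668 in set B against 3941 and 4332), and the highest a complex event of *Snap91*, a clathrin adaptor, at 0.37. Dynamin 1, the neuronal form that pinches vesicles off, varied little: the 4 events of *Dnm1* on chromosome 2 lay between -0.10 and -0.01, among them the mutually exclusive exons of 139 nt at -0.10 with 4922 and 5143 against 3086 and 3452. A further path under the *Dnm1* event of 25 nt is placed on chromosome 3 and had 0.02. *Dnm2* lay between -0.13 and 0.13, and *Dnm3* had -0.29.

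The postsynaptic scaffold had 35 events in 12 genes, with the largest median absolute value of the 7 roles, 0.21. Past the fold were 2 of them (5.71%, against 7.32% of all events). *Shank3* is a master scaffold of excitatory synapses with several internal promoters. Its alternative start (chromosome 15, 89330287 to 89331834) had exclusion intensities of 428 in set A and 504 in set B, with inclusion intensities of 788 and 613, for a value of 0.60. The start of *Shank2* had -0.16. In *Dlgap2*, which couples PSD-95 to Shank proteins, a cassette exon of 42 nt (chromosome 8, 14822695 to 14829868) had 210 and 267 for exclusion, 321 and 275 for inclusion and a value of 0.57. Alternative starts of *Dlgap2* ran from -0.15 to 0.39.

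*Dlg4* encodes PSD-95, and its 110 nt cassette exon had a value of 0.12, with 195 and 232 on the exclusion path and 5878 and 6438 on the inclusion path. *Dlg1* (SAP97) reached -0.44 at a 36 nt exon (896 and 692 against 1990 and 2080) and had -0.30 at a 99 nt exon. *Dlg3* (SAP102) had 0.40 at a 54 nt exon and -0.26 at a 42 nt exon, and the *Dlg2* events lay between -0.02 and 0.22. *Homer1* is known for a short form made by early ending of the transcript. Its alternative end had 1085 in set A and 861 in set B on the exclusion path, 448 and 405 on the inclusion path, and a value of -0.19. Of the other MAGUK and PDZ adaptors, 0 of 22 events were past the fold (background 7.32%). They ran from -0.48 for the alternative start of *Mpp6* to 0.33 for an 89 nt exon of *Magi1*.

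Just past the fold were *Erc1* (0.55), *Stx16* (-0.53) and *Rims2* (-0.53), and just short of it *Mpp6* (-0.48), *Amph* (-0.48) and *Dlg1* (-0.44). The next value after these was that of a *Vamp4* start, 0.43.

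Events of one gene did not share a sign in most of the genes with 4 or more of them. For alternative starts and ends the sign follows the path counted as exclusion, whose form is not stated in words. *Stxbp5l* and *Syt6* had every event above 0. *Dlg1*, *Dlg3*, *Dlgap2*, *Erc1*, *Grip1*, *Magi1*, *Rims1*, *Synj2*, *Synj2bp*, *Sytl2* and *Unc13b* each had events above 0.2 and at -0.15 or lower. Spans overlapped in 68 pairs of member events in 26 genes, and 5 of the 14 events past the fold were in such a pair, so counts over events include shared stretches of RNA.

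**Figure D4:**
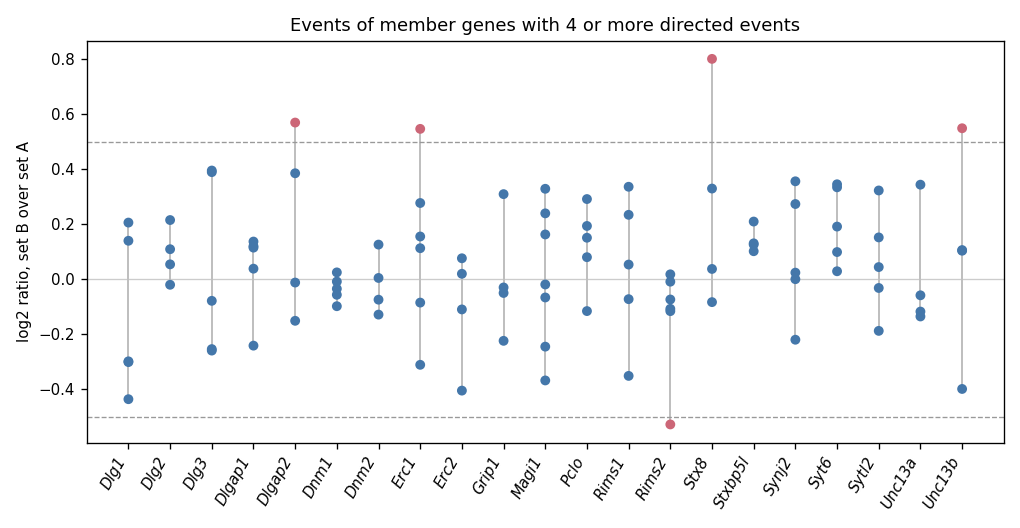
log2 ratio of each event, set B over set A (y axis), for the 21 member genes with 4 or more events that have an exclusion path (x axis). Each point is an event and each line joins the lowest and highest of a gene, and red points are past the fold (dashed lines). Most genes have points on both sides of 0, while *Stxbp5l* and *Syt6* have all of theirs above it and *Dnm1* stays between -0.10 and 0.02.

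Cassette exons were the commonest member events, 65 of 202 (32.2%, against 29.2% of all events), followed by alternative starts (20.3% against 17.3%), alternative ends (15.8% against 19.4%) and complex events (13.9% against 9.7%). Retained introns were 3.96% of the members and 8.19% of all events. The number in an event name was taken as the length of its segment, since for retained introns the listed span exceeded it by 3 bases in 93.8% of cases. The introns of *Stx17* (475 nt), *Rims1* (532 nt) and *Dnm1* (811 nt) were exceptions, with longer spans. Of the member cassette exons, 4 were past the fold (6.15%, against 8.5% of all cassette exons). Their lengths ran from 27 to 821 nt with a median of 82 nt, against 102 nt over all cassette exons, and 61.5% were a multiple of 3, against 53.1%.

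Short cassette exons of up to 60 nt were 18 of the 65 members (27.7%, against 20.2% of all). All but the 50 nt exon of *Stxbp2* had a length that keeps the reading frame, 17 of 18 or 94.4%, against 65.2% of all cassette exons of this size. Exons of this kind are a known feature of neuronal transcripts. Their median absolute value was 0.31, against 0.16 for the 47 longer member exons, whereas over all cassette exons these medians were 0.18 and 0.19. Values lay on both sides of 0, with 11 of 18 above it, from 0.57 in *Dlgap2* and 0.55 in *Unc13b* to -0.44 in *Dlg1* and -0.41 in *Erc2* (36 nt, 306 and 241 against 325 and 339). The exons of 36 nt in *Dlg1*, *Erc2* and *Unc13b* lay between -0.44 and -0.40, and that of 36 nt in *Magi1* at 0.24. The comparison of short with long exons was made after the values had been seen and carries no test.

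**Figure D5:**
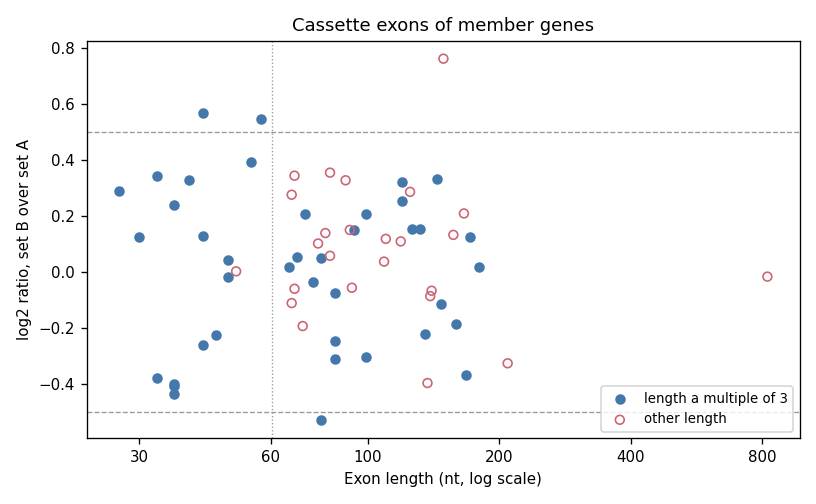
log2 ratio, set B over set A (y axis), against exon length (x axis, nt, log scale) for the 65 member cassette exons. Filled points have a length that is a multiple of 3, the dotted line stands at 60 nt and the dashed lines at the fold. Left of 60 nt, 17 of 18 points are filled and the points spread to both sides of 0.

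The summed intensity of both paths is a measure that the symbols did not use, and it follows the amount of RNA from the gene as far as the probes read it. In brain tissue, fewer cells of a type and less RNA per cell cannot be told apart by it. Its median log2 ratio of set B over set A was -0.05 over members and -0.0051 over all events. Only the alternative 3' splice site of *Doc2g*, 0.61 (exclusion 255 and 358, inclusion 528 and 837), and the 33 nt exon of *Snap23*, -0.50, exceeded 0.5 in size, which is 0.99% of members, against 0.809% of all events. The *Doc2g* paths were both higher in set B, and its ratio of paths was -0.18. This event lies on chromosome 19 (4004796 to 4006130), the chromosome of *Nxf1*, outside the interval left out. Whether linked CAST sequence has a part in its values was not tested. Medians by role lay between -0.08 for the active zone and 0.01 for the calcium sensors. In *Syt6* all 5 events were brighter in set B, from 0.01 to 0.43, and in the single event of *Stx1a*, the syntaxin of the presynaptic membrane, the summed value was 0.33. On the other side, summed values were -0.42 for the *Doc2a* event, -0.40 for a 135 nt exon of *Synj2*, an inositol phosphatase of endocytosis, -0.36 for a 159 nt exon of *Cadps* and -0.35 for the *Sv2b* start.

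Markers of the cell types in brain were summed in the same way. The median summed log2 ratio of set B over set A was -0.07 for neurons (3 of 9 listed genes with an event), 0.07 for astrocytes (6 of 7), -0.05 for oligodendrocytes (4 of 7), 0.06 for microglia (3 of 5), -0.11 for vessels (2 of 4) and -0.04 for immature neurons (3 of 6). Single events of these lists ranged from -0.26 to 0.29. Their summed intensity over all events went from 34642 in set A to 32911 in set B for neurons, from 40249 to 41546 for astrocytes, from 53104 to 51488 for oligodendrocytes, from 2606 to 2757 for microglia, from 3389 to 3197 for vessels and from 9269 to 9241 for immature neurons. The neuron list is not separate from the members, since *Snap25* and *Syt1* are in both. The part of these cell types in the member values was not tested.

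Other genes of the vesicle cycle and of the scaffold, from a list of 83 symbols that the family names do not catch, were read the same way. Of these, 54 had an event, 108 events in all, and 13 events (12.0%, against 7.32% of all events) were past the fold, 8 with more and 5 with less exclusion in set B (backgrounds 4.51% and 2.72%). They lay in 11 of the 54 genes, against 11.7% of all genes. The highest was a complex event of *Pacsin1*, a neuronal membrane-bending partner of dynamin, at 0.83 (500 in set A and 564 in set B against 1456 and 922). *Itsn1*, a scaffold of endocytosis, had 0.62 and 0.56 and *Bin1*, the relative of *Amph*, 0.60 and 0.52, each with 2 events past the fold. On the other side were *Sh3glb1*, a BAR domain protein, at -0.69 and the kinase subunit *Camk2b* at -0.60. The median absolute value of this list was 0.14, against 0.15 over the members.

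The events of the same families inside the congenic interval, left out above, had values of 0.57 (alternative end) and 0.37 (46 nt exon) in *Stx3*, -0.23 in *Stx5a*, and 0.19 and -0.03 in *Syt7*.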

How the data were processed

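Total RNA of 6 whole brains was hybridised to 6 arrays (biotin-labelled, 1 array per animal). Affymetrix Power Tools is named in the submitters' processing notes, without a version, and array normalisation, background correction and genome build are not given in the sources used here. Positions are printed as the table gives them. They reach 152469832 on chromosome 7, past the last RefSeq gene of GRCm38 there (145324059), so they are not of that build. The authors' deposited values are summarised exclusion and inclusion intensities of 2 sets, in whole numbers and pooled over 3 arrays, handled here as a score because their scale is not stated (lowest 43, median 296, highest 13185). The authors' own separation scores and q-values, which hold their comparison, were not used, apart from reading by eye that the sign of their score is that of set B over set A.

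From the intensities, the log2 ratio of exclusion over inclusion, set B over set A, was computed for every path of the paired comparison. An event was an event name on 1 chromosome and took the largest absolute value of its paths, with the sign of its exclusion path. Events of several paths without an exclusion path (5 members) have a size and no direction. All 202 member events had intensities and no filter was set. With 1 pooled value per set no test was made, and shares are set beside those of all events. Symbols were matched to RefSeq (82 of 83 by symbol, *Stxbp3a* as a synonym). The pattern also caught *Dnm1l*, a dynamin-like gene, and *Synj2bp*, which is of none of the named families. Events named are those past 0.5, the 3 on either side of it, the extremes of each role, and genes with well known alternative forms. Other events of genes past the fold, *Doc2g*, *Stx1a*, *Syt6*, *Sytl2*, *Synj2*, *Synj2bp*, *Stxbp5l*, *Erc2*, *Pclo*, *Nsf*, *Syn2* and the other pathway genes named were chosen after their values were seen. The values of 1 gene that this rule names are not reported here. The members and lists were chosen with earlier results of these data known. The computation was tested on simulated data. Python 3.11.15, numpy 2.4.6, pandas 2.3.3 and matplotlib 3.10.9 did the computing (random seed 1). Alternatives tried were other folds, another path per event, a floor of 100 on intensities, 50 added to each, centring, and other sets of members.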

Additional observations from a re-analysis of the deposited data

How the results depend on the processing

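No paired analysis was possible because the table holds no values per array. The count of 14 member events past the fold was 12 to 16 under 8 alternatives: log2 of 1.4 as the threshold (14), the exclusion path alone (14), the brightest path (14), events with an intensity under 100 left out (12, without *Stx8* and *Rims2*), centring on the median of all events (16, with *Mpp6* at -0.51 and *Amph* at -0.51 added), *Dnm1l* and *Synj2bp* left out (14), interval events added (15) and presynaptic roles only (12). These sets held 202, 197, 202, 178, 202, 195, 207 and 145 member events, in this order. The shares of all events past the fold were 8.08%, 7.23%, 7.13%, 6.44%, 7.14%, 7.32%, 7.32% and 7.32%. By gene the count was 13 of 83, against 11.7% of all genes. It moved to 23 at an absolute log2 ratio over 0.4 (9 with more and 13 with less exclusion, against 13.9%, 8.07% and 5.2% of all events). At one over 1 it was 0 (0 with more and 0 with less exclusion, against 0.223%, 0.0924% and 0.123% of all events). For the postsynaptic and MAGUK roles alone it was 2 of 57 events (2 with more, 0 with less, backgrounds 4.51% and 2.72%), against 7.32% of all events. With 50 added to every intensity it was 8 (4 with more, 4 with less), against 3.17% of all events, and *Vamp1* (start), *Dlgap2*, *Unc13b*, *Erc1*, *Stx16* and *Rims2* were then under 0.5, at 0.31 to 0.49 in size. The median absolute value was 0.13 with 50 added, 0.16 with interval events, 0.18 for the postsynaptic and MAGUK roles and 0.29 by gene, and 0.15 otherwise. No named event past the fold changed sign under the 5 alternatives computed for single events. The median summed value of -0.046 was -0.044 without dim events and -0.041 when centred. Dim paths limit *Stx8* and *Rims2* most.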
